A study of Mus musculus with 10 samples.

Results

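The MCM helicase and replication licensing genes are 10 genes whose products load the replicative helicase onto DNA and start it: Mcm2, Mcm3, Mcm4, Mcm5, Mcm6, Mcm7, Mcm10, Cdc6, Cdt1 and Cdc7. They were chosen by gene symbol, and all 10 were found among the 23235 genes of both deposited expression tables. All 10 also had a mean of at least 1 FPKM (fragments scaled by transcript length and mapped total) in each table, the level set for testing. Embryonic mouse cortices were electroporated in utero at embryonic day 13 with a Chd8 shRNA, Chd8 being an ATP-dependent chromatin remodeler, or with a control shRNA, and cells of both groups carried GFP. The mouse strain is not given in the sources used here. At embryonic day 15 the GFP-positive cells of 3 to 5 pooled embryos made 1 replicate, and their RNA was sequenced. The new set, deposited under the name shRNA1, has 3 Chd8 knockdown libraries and 3 controls (replicates 10, 11 and 12). The first set, deposited under the name shRNA2, has 2 of each (replicates 1 and 2). Because shRNA, batch and table all change from one set to the other, these cannot be told apart, and levels were compared only within a set.

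Before a cell copies its DNA, the origin recognition complex, Cdc6 and Cdt1 load the ring of Mcm2 to Mcm7 onto origins during G1, which licenses each origin for a single use. In S phase the kinase Cdc7 with its activator Dbf4 phosphorylates the ring, Cdc45 and the GINS complex join it to form the active helicase, and Mcm10 is needed for that helicase to start. The protein geminin binds Cdt1 and blocks further loading until the next division. In the embryonic cortex these genes are expressed in dividing progenitors and are switched off as neurons leave the cell cycle. In bulk RNA, fewer cells of a type and less RNA per cell cannot be told apart.

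Chd8 itself had 2.09, 1.84 and 1.92 FPKM in new-set knockdown replicates 10, 11 and 12, against 3.59, 3.30 and 4.02 FPKM in the controls. Its first-set values were 8.55 and 9.23 FPKM in knockdown replicates 1 and 2, against 12.4 and 13.8 FPKM in the controls. Knockdown and control libraries did not overlap in either set, as was so with knockdown lower for 17.1% of the new-set and 40.4% of the first-set genes tested. Chd8 fell by 0.65 in the new set (limma, adjusted p = 0.0213), a call that held when control replicate 11 was left out and was lost when any 1 of the other 5 libraries was (limma adjusted p up to 0.0829). Its first-set log2 fold change of -0.51 (95% confidence interval -1.05 to 0.0397) did not pass (limma, adjusted p = 0.152), and was -0.35 (adjusted p = 0.314) with the libraries rescaled by median of ratios. Absolute depth is unknown. The relative depth of the new-set libraries lay between 0.96 and 1.39 times that of new-set control replicate 10. Both first-set knockdown libraries had 0.53 times the depth of first-set control replicate 1, and 80.9% and 78.9% of all genes lay above 0.1 FPKM in them, against 60.9% and 61.6% in the first-set controls. The 1096 olfactory receptor genes, not known to be expressed in embryonic cortex, averaged 0.672 and 0.557 FPKM in first-set knockdown libraries against 0.0036 and 0.00817 FPKM in controls 1 and 2. The lowest value of a licensing gene in those knockdown libraries was 3.19 FPKM. With the olfactory receptor level of each library subtracted, limma called 3 of the 6 ring subunits and 2 of the other 4 genes lower in the first set. In that setting 24.2% of 11804 genes were called. The part of the depth difference in the first-set results was not tested, nor that of the background beyond this subtraction.

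The 6 ring subunits were lower after Chd8 knockdown in every new-set library, with Mcm3 and Mcm6 past the test. Mcm3 had 28.1, 23.1 and 24.2 FPKM in knockdown replicates 10, 11 and 12, against 38.9, 35.6 and 40.2 FPKM in the controls. Mcm6 had 52.5, 45.3 and 57.7 FPKM in the knockdown libraries, against 69.1, 68.6 and 78.2 FPKM in the controls. For both subunits the highest knockdown library lay below the lowest control, and the means were 65.8% and 72.1% of the control means. On the log2(FPKM + 1) scale Mcm3 fell by 0.59 (SE 0.0986, limma, adjusted p = 0.0197) and Mcm6 by 0.47 (SE 0.106, limma, adjusted p = 0.037).

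The remaining 4 subunits of the ring were also lower without passing the test. Mcm7, the most abundant subunit, had 117, 102 and 104 FPKM in the knockdown libraries, against 128, 137 and 137 FPKM in the controls. Mcm2 had 55.8, 43.0 and 47.0 FPKM in the knockdown libraries, against 61.7, 56.9 and 61.3 FPKM in the controls. Mcm4 had 34.7, 30.04 and 33.7 FPKM in the knockdown libraries, against 39.6, 37.2 and 41.7 FPKM in the controls. For all 3 genes knockdown replicate 10 came closest to the controls without reaching them. Mcm5 had 38.6, 32.5 and 33.9 FPKM in the knockdown libraries, against 39.9, 40.8 and 44.0 FPKM in the controls, again without overlap. Their means stood between 80.2% (Mcm7) and 84.2% (Mcm5) of the control means. Their log2 fold changes lay between -0.32 for Mcm7 and -0.24 for Mcm5, with limma adjusted p-values of 0.0535 for Mcm7, 0.0971 for Mcm4, 0.101 for Mcm2 and 0.12 for Mcm5.

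Among the loading and firing factors of the new set, Cdc7 and Cdt1 fell. Cdc7, the kinase that activates loaded rings, had 10.03, 8.27 and 7.99 FPKM in the knockdown libraries, against 14.9, 13.7 and 13.8 FPKM in the controls. It had the largest fold change of the 10 genes, falling by 0.64 (SE 0.111, limma, adjusted p = 0.0203), to 62.1% of the control mean. Cdt1, which brings the ring to the origin, had 10.7, 8.55 and 9.03 FPKM in the knockdown libraries, against 14.97, 12.8 and 12.7 FPKM in the controls. Cdt1 fell by 0.48 (SE 0.117, limma, adjusted p = 0.0443). Mcm10 had 7.41, 4.67 and 6.19 FPKM in the knockdown libraries, against 10.1, 7.68 and 9.05 FPKM in the controls. Cdc6, which loads the ring together with Cdt1, had 4.84, 3.66 and 3.88 FPKM in the knockdown libraries, against 5.04, 5.76 and 6.05 FPKM in the controls. Knockdown and control libraries did not overlap for either gene, and their log2 fold changes of -0.50 (Mcm10, limma adjusted p = 0.0916) and -0.37 (Cdc6, limma adjusted p = 0.103) missed the threshold.

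Of the 10 genes, 4 therefore passed the new-set test, all lower, where 8.99% of 11291 genes tested were called and 5.15% were called lower. The knockdown libraries lay below every control for 10 of 10 genes, as they did for 17.1% of all genes tested, and the median log2 fold change was -0.42 against 0.0183 over all genes. Same-numbered libraries were taken as pairs in this set from a check on these same data, described with the processing. With the replicate number as a block 8 of 10 genes were called, where 21.7% of all genes were called with the block. The block added Mcm2 (limma adjusted p = 0.0378), Mcm4 (0.0382), Mcm7 (0.0389) and Mcm10 (0.0214). The count without the block depended on single libraries: 2 genes were called without knockdown replicate 10, and limma called 0 without knockdown replicate 11, knockdown replicate 12, control replicate 10 or control replicate 12, where 5 to 8 of the 10 had an unadjusted p under 0.05.

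**Figure D1:**
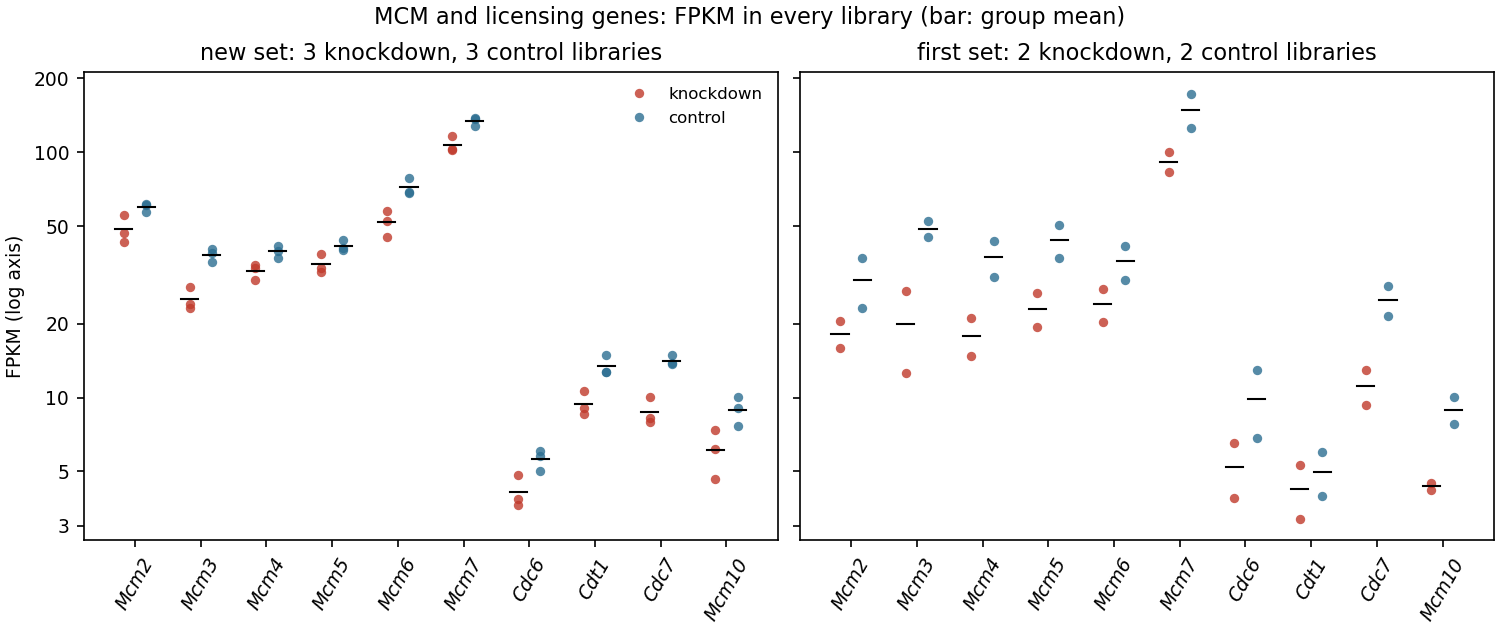
FPKM of the 10 genes in every library on a log axis, with knockdown points left of control points in each set and a bar at each group mean. No new-set knockdown point reaches a control point for any gene, and first-set groups overlap for Cdt1 alone.

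The ring subunits were also lower in the first set, where the controls were farther apart. Mcm3 had 12.6 and 27.3 FPKM in knockdown replicates 1 and 2, against 52.3 and 45.1 FPKM in the controls. Mcm4 had 14.7 and 21.1 FPKM in the knockdown libraries, against 43.7 and 31.2 FPKM in the controls. Mcm5 had 19.4 and 26.6 FPKM in the knockdown libraries, against 50.4 and 37.1 FPKM in the controls. These 3 subunits stood at 41.0%, 47.9% and 52.6% of their control means, and both knockdown libraries lay below both controls. On the log2(FPKM + 1) scale Mcm3 fell by 1.34 (SE 0.348, limma, adjusted p = 0.033), Mcm4 by 1.02 (SE 0.273, limma, adjusted p = 0.0354) and Mcm5 by 0.90 (SE 0.258, limma, adjusted p = 0.0446).

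Mcm7 had 100.4 and 83.0 FPKM in the first-set knockdown libraries, against 174 and 125 FPKM in the controls, a log2 fold change of -0.69 (SE 0.236, limma, adjusted p = 0.0739). Mcm2 had 15.9 and 20.5 FPKM in the knockdown libraries, against 36.9 and 23.2 FPKM in the controls. Mcm6 had 20.3 and 27.7 FPKM in the knockdown libraries, against 41.5 and 30.3 FPKM in the controls. For Mcm2 and Mcm6 knockdown replicate 2 lay just under control replicate 2, and neither gene passed the test, with log2 fold changes of -0.67 (limma adjusted p = 0.128) and -0.56 (limma adjusted p = 0.154).

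Cdc7 and Mcm10 fell in the first set as well. Cdc7 had 9.29 and 12.99 FPKM in the knockdown libraries, against 28.6 and 21.6 FPKM in the controls, and fell by 1.11 (SE 0.266, limma, adjusted p = 0.0261). Mcm10 had 4.48 and 4.22 FPKM in the knockdown libraries, against 10.1 and 7.78 FPKM in the controls, and fell by 0.88 (SE 0.257, limma, adjusted p = 0.0463). Their means stood at 44.4% (Cdc7) and 48.7% (Mcm10) of the control means, and the groups did not overlap. The loading factors did not pass. Cdc6 had 3.91 and 6.51 FPKM in the knockdown libraries, against 12.9 and 6.86 FPKM in the controls (limma adjusted p = 0.153). Cdt1 had 3.19 and 5.31 FPKM in the knockdown libraries, against 5.999 and 3.98 FPKM in the controls, so that the groups overlapped. Its log2 fold change of -0.20 had a 95% confidence interval of -0.94 to 0.54 (limma adjusted p = 0.666).

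In all, 5 of the 10 genes passed the first-set test, all lower, where 23.8% of 12461 genes tested were called and 10.7% were called lower. The groups did not overlap, with knockdown lower, for 9 of the 10 genes against 40.4% of all genes tested, and the median log2 fold change was -0.83 against -0.15. Median-of-ratios rescaling of the libraries moved the median of all genes to 0.0143 and left 1 gene called, Cdc7 (log2 fold change -0.94, limma adjusted p = 0.0424), with Mcm3 at 0.0504 and all 10 fold changes still below 0. Leaving out knockdown replicate 1, control replicate 1 or control replicate 2 left 0 calls by limma, with 4, 2 and 9 genes at an unadjusted p under 0.05, and leaving out knockdown replicate 2 left Mcm3 alone. The log2 fold change of Mcm3 was -0.81 without knockdown replicate 1 and -1.87 without knockdown replicate 2, while that of Mcm2 lay between -0.99 (without control replicate 2) and -0.34 (without control replicate 1) and that of Cdc6 between -1.20 and -0.37 for the same libraries.

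A joined fit took the mean of both fold changes over all 10 libraries and called 9 of 10 genes lower, where 29.9% of 10827 genes were called and 20.5% were called lower. Cdc7 fell by 0.87 (SE 0.125, limma, adjusted p = 0.00115) and Mcm3 by 0.96 (SE 0.17, limma, adjusted p = 0.0027). Mcm10 fell by 0.69, Mcm4 by 0.64, Mcm5 by 0.57, Mcm6 by 0.52, Mcm7 by 0.50 and Mcm2 by 0.49, with limma adjusted p-values from 0.00408 for Mcm4 to 0.0204 for Mcm2. Cdc6 fell by 0.58 (limma adjusted p = 0.0291), a call that was lost with the replicate block (limma adjusted p = 0.0668) and with rescaling (0.0518). The block of this fit also covered the first set, whose same-numbered libraries did not deviate together. Cdt1 was the gene that did not pass, at -0.34 (SE 0.147, limma, adjusted p = 0.102). In each of the 10 fits that left out a library Mcm3, Mcm4, Mcm5, Mcm6, Mcm7, Cdc7 and Mcm10 were called. Mcm2 and Cdc6 both lost their calls without first-set knockdown replicate 1 and without first-set control replicate 1, and Cdc6 also without new-set knockdown replicate 11, knockdown replicate 12 or control replicate 12. Cdt1 was called without first-set knockdown replicate 2 or control replicate 2. For 9 of 10 genes the knockdown libraries lay below all controls in both sets, against 7.6% of all genes tested. The fold changes of all 10 genes were below 0 in each of the 3 fits, as were those of 47% of all genes tested in the new set, 58% in the first and 63.1% in the joined fit.

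**Figure D2:**
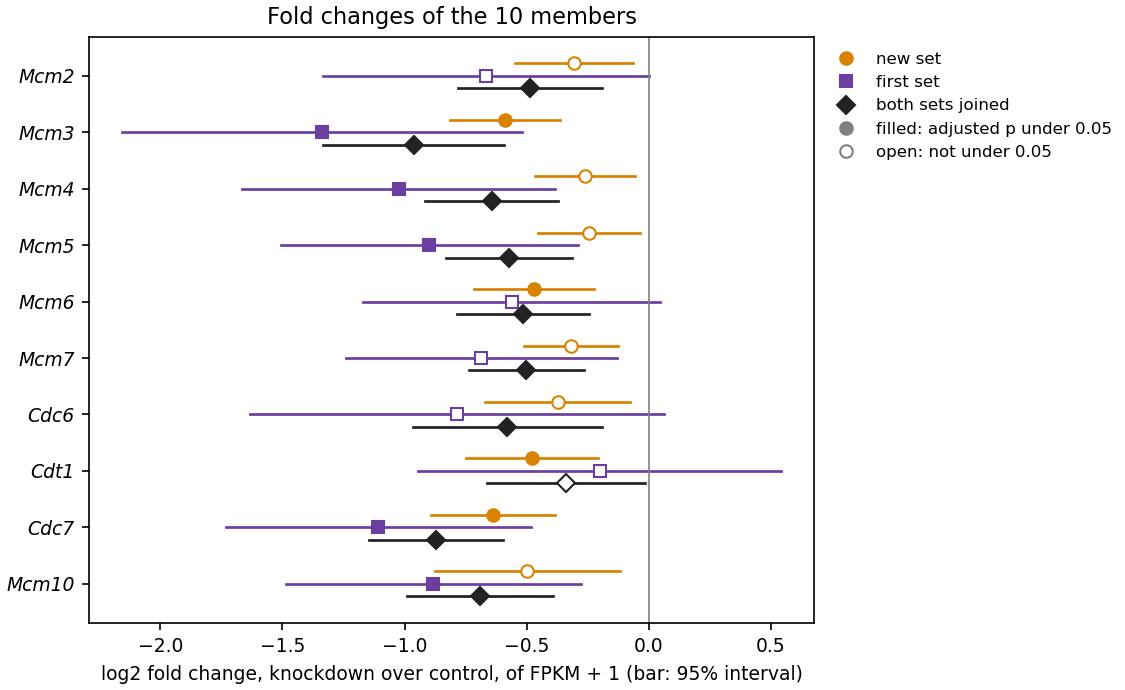
Log2 fold changes (knockdown over control, log2(FPKM + 1) scale) of the 10 genes in the new set, the first set and the joined fit, with 95% confidence intervals from limma. All 30 points lie below 0, and the first-set intervals are the widest.

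The difference between the sets was called for 1 of the 10 genes, where 32.5% of all genes were called on that contrast with 22.5% positive and 9.98% negative. Mcm4 was the gene, with a new-set minus first-set difference of 0.76 (SE 0.248, limma, adjusted p = 0.0361), which is a smaller fall in the new set. Mcm5 had a difference of 0.65 (limma adjusted p = 0.0528) and Mcm3 one of 0.75 (limma adjusted p = 0.112). Mcm6 had the smallest difference in size, 0.0924 (95% confidence interval -0.45 to 0.63, limma adjusted p = 0.797). With rescaling limma called 0 genes (1 at an unadjusted p under 0.05), and with the replicate block 0 (2 at that level). The block of this fit also covered the first set, whose same-numbered libraries did not deviate together. The Mcm4 call was thus lost in both settings. It held in 3 of the 10 fits that left out a library, those without new-set knockdown replicate 11, first-set knockdown replicate 2 or first-set control replicate 2.

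The 6 ring subunits meet in the helicase in equal number, so their RNA was also read as shares of the summed Mcm2 to Mcm7 FPKM. The sum was 301 ± 25.01 FPKM in new-set knockdown libraries and 385 ± 14.5 FPKM in controls (SD, n = 3 each). First-set libraries gave 195 ± 16.1 FPKM for knockdown and 345 ± 75.2 FPKM for controls (SD, n = 2 each). The sums did not overlap in either set and stood at 78.1% (new set) and 56.4% (first set) of the control mean. Mcm7 took the largest share in every group, 35.8% in knockdown and 34.8% in control libraries of the new set, and 47.5% in knockdown and 43.2% in control libraries of the first set. The subunit Mcm3 took 8.35% ± 0.279 of the sum in new-set knockdown libraries and 9.92% ± 0.431 in controls (SD, n = 3 each), without overlap. Mcm4 and Mcm5 took larger shares there after knockdown, 10.9% against 10.2% for Mcm4 and 11.6% against 10.8% for Mcm5, also without overlap. First-set Mcm3 shares overlapped (6.88% and 13.3% in knockdown libraries, 13.1% and 15.5% in controls), and the Mcm4 share was lower after knockdown without overlap, 9.13% against 10.8%. The first-set Mcm6 share was higher without overlap, 12.2% after knockdown against 10.4% in controls, and the Mcm5 shares overlapped, at 11.7% against 12.7%. The shares were given no test.

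**Figure D3:**
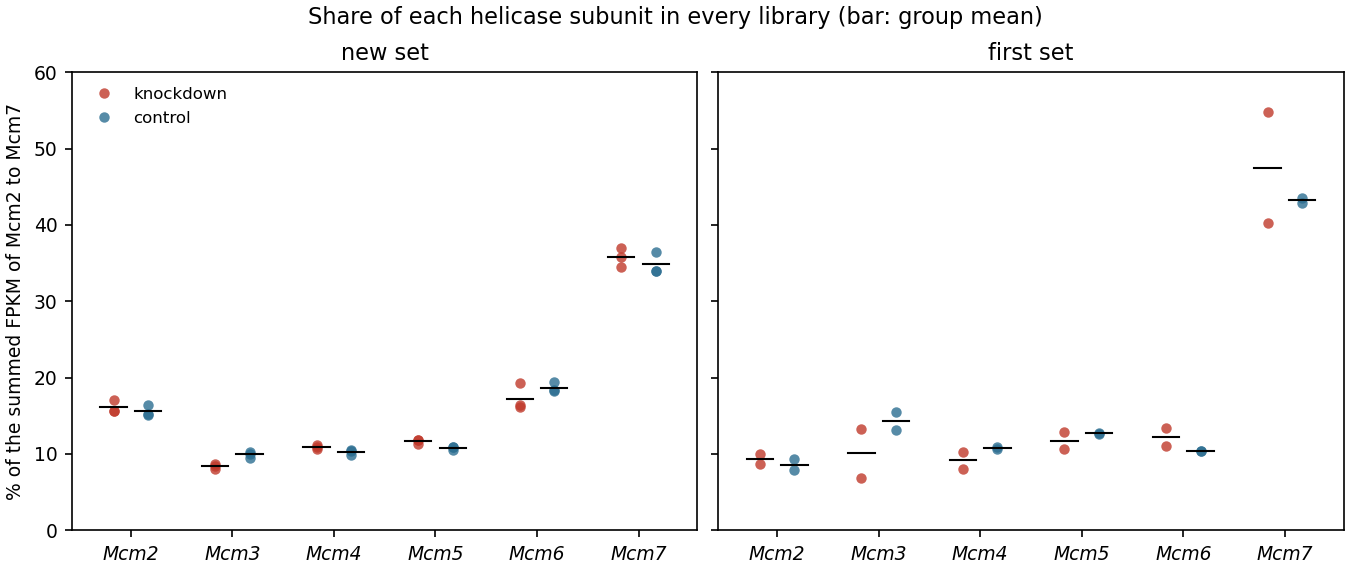
Share of each subunit in the summed FPKM of Mcm2 to Mcm7 in every library, in percent, knockdown libraries left of controls in each set. Mcm7 holds the largest share in all 10 libraries, and the new-set Mcm3 share is near 8% after knockdown and near 10% in controls.

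FPKM divide by transcript length, so levels were ordered between genes within a group. Other differences between genes, such as reads of overlapping genes, were not tested and limit this order and the shares above. Mcm7 was highest in all 4 groups and did not overlap with the next gene. In new-set knockdown libraries Mcm6 (51.9 FPKM) and Mcm2 (48.6 FPKM) overlapped, as did Mcm5 (34.996 FPKM) and Mcm4 (32.8 FPKM), and Mcm3 (25.1 FPKM) stood alone below them. In the new-set controls Mcm6 (72.0 FPKM) and Mcm2 (59.9 FPKM) did not overlap, and Mcm5 (41.6 FPKM), Mcm4 (39.5 FPKM) and Mcm3 (38.2 FPKM) did. Cdc7, Cdt1, Mcm10 and Cdc6 lay below all ring subunits in the new set, with Cdc6 lowest at 4.13 FPKM in knockdown libraries and 5.62 FPKM in controls. Cdt1 was lowest in the first set, at 4.25 FPKM in knockdown libraries and 4.99 FPKM in controls, and most neighbours among Mcm2 to Mcm6 overlapped. In 3 of the 4 groups most of the 10 genes ranked the libraries alike. New-set knockdown replicate 11 was the lowest knockdown library for 9 of 10 genes, first-set control replicate 1 the higher control for 10 of 10, and first-set knockdown replicate 1 the lower knockdown library for 8 of 10. Among the new-set controls the lowest library was replicate 10 for 3 genes, replicate 11 for 6 and replicate 12 for 1, and the highest was replicate 10 for 4 genes, replicate 11 for 1 and replicate 12 for 5.

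Promoters are shown because all 10 fold changes lay below 0 in both sets and many of these genes are known targets of E2F factors, transcription factors that drive S phase genes in mammals. RefSeq sequences of 250 bases before and 50 after the start (GRCm38.p6) were matched for 9 of the 10 genes, the exception being Mcm4. The E2F motifs searched on both strands were TTTCGCGC, TTTGGCGC, TTTCCCGC, TTTGGCGG and TTTCCCGG. At least 1 stood in 6 of the 11 promoters listed for these 9 genes, against 3.59% of 32851 RefSeq promoters. The 6 genes were Mcm3, Mcm5, Mcm6, Mcm7, Cdc6 and Cdt1. The CHR element TTTGAA, bound by the DREAM complex in many genes of late cell cycle, was found in Mcm2 and Cdc7. These were 2 of 9 genes and 3 of 11 promoters, near the share of 17.9% over all promoters. Capitals mark the matches in the stretches below, of which Mcm6 and Mcm5 hold 2 E2F motifs that overlap on opposite strands, the Mcm6 pair at positions -110 to -99 and the Mcm5 pair at -153 to -142 from the start.
Mcm6, chr1:128359706-128359955, minus strand: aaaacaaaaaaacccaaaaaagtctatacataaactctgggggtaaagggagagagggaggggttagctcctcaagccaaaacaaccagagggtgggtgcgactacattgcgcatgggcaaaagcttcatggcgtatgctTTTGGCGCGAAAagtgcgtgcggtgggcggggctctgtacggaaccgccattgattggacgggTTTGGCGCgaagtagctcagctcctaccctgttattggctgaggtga
Mcm5, chr8:75109259-75109458, plus strand: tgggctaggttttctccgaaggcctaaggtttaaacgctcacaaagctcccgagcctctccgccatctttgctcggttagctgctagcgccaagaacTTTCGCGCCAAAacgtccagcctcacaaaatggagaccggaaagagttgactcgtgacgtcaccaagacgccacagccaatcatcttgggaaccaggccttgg
Mcm2, chr6:88898781-88899030, minus strand, with a CHR element and no E2F motif: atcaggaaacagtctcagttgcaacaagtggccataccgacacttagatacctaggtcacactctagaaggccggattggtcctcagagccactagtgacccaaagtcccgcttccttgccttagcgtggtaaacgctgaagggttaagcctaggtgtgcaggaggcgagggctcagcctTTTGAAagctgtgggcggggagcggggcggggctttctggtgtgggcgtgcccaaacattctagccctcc

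The remaining E2F matches are shown as 30-base windows, and those of Mcm3, Cdt1 and the second of Mcm7 lie just past the start.
Mcm3, chr1:20820265-20820294, minus strand: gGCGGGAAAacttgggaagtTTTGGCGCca
Mcm7, chr5:138172030-138172059, minus strand: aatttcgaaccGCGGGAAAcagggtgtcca
Mcm7, chr5:138171849-138171878, minus strand: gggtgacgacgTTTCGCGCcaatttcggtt
Cdc6, chr11:98908002-98908031, plus strand: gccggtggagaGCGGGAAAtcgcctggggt
Cdt1, chr8:122568034-122568063, plus strand: cgggaactaccttTTTGGCGCcatggcgca
GCGGGAAA is TTTCCCGC read on the opposite strand. Of the genes with an E2F match, Mcm3 was called in both sets, Mcm6 and Cdt1 in the new set and Mcm5 in the first set. Mcm7 and Cdc6 were called in neither set alone. Of the genes without an E2F match in this window, Cdc7 was called in both sets, Mcm10 in the first set and Mcm2 in neither. A match is a description of letters only.

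The origin recognition complex acts before the ring is loaded. Of its 6 subunits, 0 were called by limma in the new set (median log2 fold change 0.0178, and 1 of 6 at an unadjusted p under 0.05). Orc1 had a log2 fold change of -0.45 (limma adjusted p = 0.0891) at 1.31 ± 0.348 FPKM in knockdown libraries and 2.15 ± 0.242 FPKM in controls (SD, n = 3 each). The first set had 1 call of 6: Orc3 fell by 0.78 (limma adjusted p = 0.0499), where 10.7% of all genes were called lower. The joined fit called Orc3 alone, at -0.34 (limma adjusted p = 0.0218), where 20.5% were called lower. The summed FPKM of the complex overlapped in the new set, 134 to 142 in knockdown libraries and 130.1 to 143 in controls. In the first set the sum was lower without overlap, 132 to 149 in knockdown libraries and 163 to 192 in controls. The first-set median log2 fold change was -0.38, against -0.15 over all genes tested. Without overlap, 4 of 6 subunits were lower there and 1 was higher, where 40.4% of all genes tested were lower.

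Partners that turn the loaded ring into an active helicase, 10 genes with Cdc45, the GINS subunits, Dbf4, Topbp1, Recql4, Mtbp and Ticrr, had 0 calls by limma in the new set (6 of 10 at an unadjusted p under 0.05) and 1 of 9 tested in the first set, where 10.7% of all genes were called lower. That gene was Topbp1, which fell by 0.89 (limma adjusted p = 0.0449). With the replicate block 3 of 10 were called lower and 1 higher in the new set. The joined fit called 4 of 9 lower and 1 higher, where 20.5% of all genes were called lower and 9.37% higher. Dbf4, the activating subunit of Cdc7, fell by 0.56 (limma adjusted p = 0.0167). Topbp1 fell by 0.55 (limma adjusted p = 0.0103), Mtbp by 0.61 (limma adjusted p = 0.0225) and Gins2 by 0.35 (limma adjusted p = 0.0222). Gins4 was the exception and rose by 0.39 (limma adjusted p = 0.0292). It averaged 52.9 ± 2.04 FPKM in new-set knockdown libraries and 43.7 ± 4.33 FPKM in controls (SD, n = 3 each). Cdc45 had a joined log2 fold change of -0.33 and did not pass (limma adjusted p = 0.0914).

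Of 8 genes that restrain licensing or turn Cdt1 over, new-set knockdown libraries had 1 lower call, the first set had 5 and the joined fit had 6, with none higher, where 5.15%, 10.7% and 20.5% of all genes were called lower in the 3 fits. With the replicate block the new-set count was 4. Dtl, the substrate adaptor that directs Cdt1 to degradation in S phase, was called in both sets. It averaged 9.58 ± 1.1 FPKM in new-set knockdown libraries and 16.3 ± 2.63 FPKM in controls (SD, n = 3 each), and fell by 0.70 there (limma adjusted p = 0.0265) and by 1.11 in the first set (limma adjusted p = 0.0309). Gmnn, which encodes geminin, fell by 0.64 in the joined fit (limma adjusted p = 0.0176) and passed in neither set alone (limma adjusted p = 0.111 for the new set, 0.0747 for the first). The ubiquitin ligase genes Skp2, Cul4b and Ddb1 fell in the first set by 1.38, 0.95 and 1.41, and cyclin A2 (Ccna2) by 0.84, with limma adjusted p-values from 0.00978 for Ddb1 to 0.039 for Ccna2. Ddb1 averaged 115 ± 16.4 FPKM in new-set knockdown libraries and 102 ± 28.1 FPKM in controls (SD, n = 3 each), a log2 fold change of 0.20 (limma adjusted p = 0.55).

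The list of genes related to the ring held both rises and falls. Of 3 tested in the new set, 0 were called by limma and 0 had an unadjusted p under 0.05. Mcm8, a helicase of DNA repair, rose by 0.95 in the first set (limma adjusted p = 0.0328) and averaged 8.64 ± 0.598 FPKM in knockdown libraries and 4.001 ± 0.314 FPKM in controls (SD, n = 2 each), a call lost when the olfactory receptor level of each library was subtracted. Mcmdc2, listed under its older symbol and known for a role in meiosis, averaged 26.9 ± 6.37 FPKM in first-set knockdown libraries and 1.03 ± 0.183 FPKM in controls (SD, n = 2 each), a log2 rise of 3.77 (limma adjusted p = 0.000563). This gene lay below the level set for testing in the new set, at 0.148 FPKM in knockdown libraries and 0.256 FPKM in controls. Mcmbp, which binds free MCM proteins, fell by 1.49 in the first set (limma adjusted p = 0.0105) and had a new-set log2 fold change of -0.10 (limma adjusted p = 0.442).

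Of 7 fork protection and checkpoint genes, the new set had 1 lower call, the first set 4 and the joined fit 5, with none higher, beside the same shares of 5.15%, 10.7% and 20.5% of all genes. The new-set count was 4 with the replicate block. Timeless, which with Tipin stabilises forks, fell by 0.67 in the new set (limma adjusted p = 0.0219), to 6.35 ± 0.706 FPKM in knockdown libraries against 10.7 ± 1.14 FPKM in controls (SD, n = 3 each). First-set Wdhd1 fell by 1.31, the checkpoint kinase gene Chek1 by 0.95, Rif1 by 0.86 and Tipin by 0.69, with limma adjusted p-values from 0.0266 for Wdhd1 to 0.046 for Tipin. Of the 8 E2F genes, 1 was called in the new set (4 with the replicate block), where 5.15% of all genes were called lower: E2f2 fell by 0.80 (limma adjusted p = 0.049). Limma called 0 of them in the first set (2 at an unadjusted p under 0.05), and the joined fit called E2f2, E2f3, E2f4 and E2f6 lower, by 0.64, 0.49, 0.43 and 0.45, against 20.5% of all genes.

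Of 18 genes of G2 and mitosis, 1 was called in the new set (Kif23, which fell by 1.12, limma adjusted p = 0.0165), 12 in the first set and 16 in the joined fit, all lower. Of all genes, 5.15%, 10.7% and 20.5% were called lower in these fits, so the new-set count of calls lies near the share over all genes. Yet all 18 new-set fold changes lay below 0, as did 47% of all genes tested. Knockdown was lower without overlap for 10 of 18, against 17.1% of all genes. An unadjusted p under 0.05 by limma was reached by 9 of 18, against 3389 of 11291 genes. The new-set count was 6 with the replicate block, and the first-set count was 7 with rescaling. The other two, Cdc20 and Cenpa, had joined log2 fold changes of -0.13 and -0.0402. The topoisomerase gene Top2a fell in the first set by 1.32, the kinase gene Plk1 by 1.36 and Kif20a, a kinesin of cell division, by 2.05, with limma adjusted p-values of 0.0072, 0.00732 and 0.0027. The list's median log2 fold change was -0.35 (new set) and -0.86 (first set), beside -0.42 and -0.83 for the licensing genes.

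Single libraries decided many calls of these related lists. Of the first-set calls named above, those of Mcmdc2 and Kif20a held in all 4 fits that left out a library, and each other one was lost without knockdown replicate 1 and without control replicate 1. Rescaling ended the first-set calls of Orc3, Topbp1, Ccna2, Cul4b, Tipin, Rif1 and Chek1 and of the mitosis genes Aurkb, Cdk1, Cenpe, Kif11 and Mki67, and the joined calls of Orc3, Gins2, E2f3 and Cenpf. The first-set mitosis count lay between 2 and 4 when 1 library was left out. Among the new-set calls, Kif23 held in all 6 such fits, and Dtl, Timeless and E2f2 were lost without knockdown replicate 10, 11 or 12 and without control replicate 10 or 12. Of the joined calls, those of Orc3, Dbf4, Mtbp, Gins2, Gins4, Gmnn, Ddb1, E2f2, E2f3 and E2f6 were lost without first-set knockdown replicate 1 (for some of them also without others), and that of E2f4 without first-set control replicate 1.

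**Figure D4:**
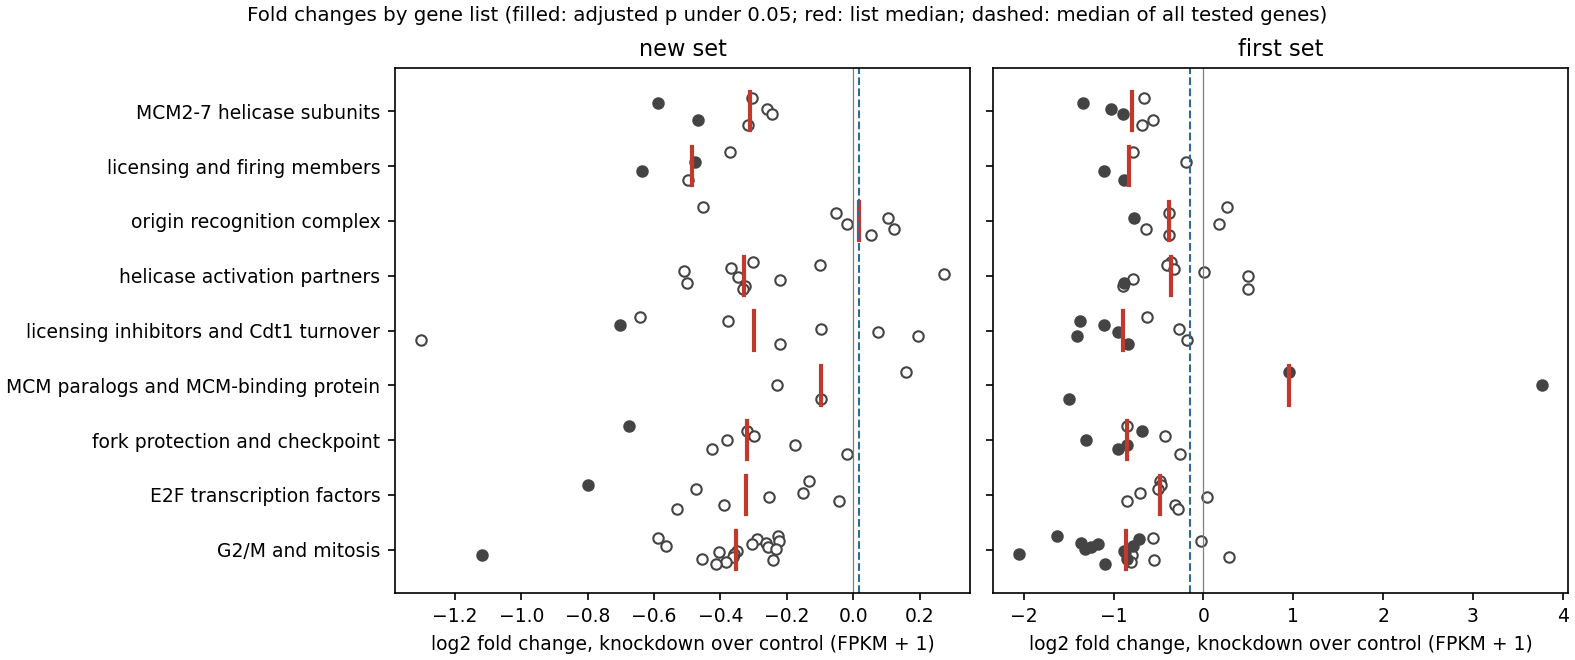
Log2 fold changes (knockdown over control) of the tested genes of the licensing group and of 7 related lists in both sets, with filled points for genes past the test and a bar at each median. New-set points of the origin recognition complex are spread around 0, and its first-set median is -0.38. Points of the ring subunits lie below 0 in both sets.

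Markers of cell types also differed between the groups, and their part in the licensing results was not tested. Of the new-set markers, 8 of 12 for radial glia and 4 of 8 for intermediate progenitors fell, and 8 of 15 for neurons rose, where 5.15% of all genes were called lower and 3.84% higher. With the replicate block the new-set counts were 9, 6 and 12. With 1 library left out the neuron count was 1 without any 1 knockdown library or control replicate 12, 3 without control replicate 10 and 10 without control replicate 11. The radial glia count was 8 without control replicate 11, 6 without control replicate 10 and 3 without any 1 of the others, and the intermediate progenitor count lay between 1 (without knockdown replicate 11) and 4. The summed FPKM of the neuron markers lay between 3706 and 4542 in new-set knockdown libraries and between 2606 and 3054 in controls, without overlap. Knockdown replicate 11, the lowest knockdown library for most licensing genes, had the highest neuron sum and the lowest mitosis sum (604 FPKM). Knockdown replicate 10, the highest for 9 of 10 licensing genes, had the highest mitosis sum (874 FPKM) but not the lowest neuron sum. Its neuron sum was 3875 FPKM, against 3706 FPKM in knockdown replicate 12. Neuron markers of the first set went the other way from the new-set rise: 5 of 15 fell and 0 rose. Their sum lay between 3377 and 3661 FPKM in knockdown libraries and between 4933 and 5413 FPKM in controls. First-set knockdown replicate 1, the lower for 8 of 10 licensing genes, had the higher mitosis sum (396 against 365 FPKM). First-set control replicate 1, the higher for 10 of 10, had the higher mitosis sum (805 against 685 FPKM) and also the higher neuron sum. There 3 of 12 radial glia markers fell, and of 8 intermediate progenitor markers 3 fell and 2 rose, where 10.7% of all genes were called lower and 13.2% higher. With 1 library left out, first-set calls were 0 to 2 lower for neurons, 0 to 3 lower for radial glia and 0 to 1 in either direction for intermediate progenitors, and rescaling left 3, 1 and 2 lower. Radial glia sums overlapped in both sets, at 1129 to 1696 FPKM in new-set knockdown libraries and 1389 to 1812 FPKM in controls, and at 1060 to 2219 FPKM in first-set knockdown libraries and 1856 to 1889 FPKM in controls. Fabp7 made the largest part of these sums, at 779 ± 283 FPKM in new-set and 1300 ± 750 FPKM in first-set knockdown libraries (SD, n = 3 and n = 2). Taken singly, 9 of 12 radial glia markers in the new set and 5 of 12 in the first were lower without overlap. The shares over all genes were 17.1% and 40.4%.

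Signs of other cells and of handling moved too. New-set interneuron markers fell for 5 of the 5 tested of 8 listed (sum 9.18 to 9.29 FPKM in knockdown libraries and 18.6 to 27.6 FPKM in controls). Of these, Dlx2, Dlx5, Lhx6 and Calb2 averaged 0.97, 0.54, 0.75 and 1.01 FPKM in knockdown libraries, near or under 1 FPKM. Dlx2, Dlx5 and Lhx6 thus reached the level set for testing only through the controls. Of 4 tested erythroid markers 2 fell (sum 23.2 to 114 FPKM in knockdown libraries and 137 to 264 FPKM in controls). Of all new-set genes tested, 5.15% were called lower. The interneuron and erythroid counts lay between 0 and 5 and between 0 and 2 when 1 library was left out. First-set calls by limma were 0 of 8 for interneurons (1 at an unadjusted p under 0.05) and 0 of 2 tested for erythroid cells (0 at that level). There 4 of 6 tested microglia markers rose, where 13.2% of all genes were called higher (sum 13.5 and 23.7 FPKM in knockdown libraries and 1.47 and 5.28 FPKM in controls). The 4 were Cx3cr1, Tyrobp, C1qa and C1qc, which averaged 0.36, 0.60, 0.0396 and 0.0331 FPKM in first-set controls. They reached the level set for testing only through the knockdown libraries, so this count is in part set by that filter. Of the microglia markers 1 to 3 rose when 1 first-set library was left out, and 1 of 3 tested rose with the olfactory receptor level subtracted. Limma called 0 of 3 tested microglia markers in the new set (1 at an unadjusted p under 0.05). For endothelium and pericytes, limma called 0 of 2 markers tested in the first set (0 at an unadjusted p under 0.05) and no marker could be tested in the new set, where their sum was at most 2.78 FPKM in knockdown libraries and 2.84 FPKM in controls. No marker of the meninges or of oligodendrocyte precursors reached the level set for testing. Immediate early and dissociation genes rose for 12 of 12 in the first set, where 13.2% of all genes were called higher. Of these, Fosb, Junb, Egr2, Atf3, Arc and Npas4 averaged at most 0.40 FPKM (Arc) in first-set controls. They reached the level set for testing only through the knockdown libraries, so the count is in part set by that filter. Their sum was 391 and 339 FPKM in knockdown libraries against 39.99 and 40.1 FPKM in controls. Of 7 tested in the new set, Jun and Ier2 fell, where 5.15% of all genes were called lower.

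Genes whose profile over the 10 libraries was nearest to the mean profile of Mcm2 to Mcm7 were ranked by root mean square distance in log2 units. Over 10817 genes that are no members the median distance was 0.45. The nearest were Prps2 (0.0666), which makes a nucleotide precursor, then Tmem161b (0.0891), Dlgap5 (0.0899), a mitotic spindle gene, Rprd1b (0.0901) and Wdr67 (0.0904). Prps2 averaged 3.88 ± 0.415 FPKM in new-set knockdown libraries and 5.52 ± 0.126 FPKM in controls (SD, n = 3 each). Of the licensing genes that are no part of the ring, Cdc6 lay nearest to the same profile (0.12) and Cdt1 farthest (0.31). Cdt1 was also the gene of the 10 whose groups overlapped in the first set.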

How the data were processed

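RNA was measured by sequencing sorted cortical cells in 10 libraries. Per the labels' protocols, RNeasy Plus columns gave the total RNA and a Clontech low input kit the libraries. Per the submitters' processing notes, TopHat2, Bowtie, Cufflinks 2.0.0, Cuffdiff and the mouse build mm9 were used. Annotation and strand setting: not given in the sources used here, so reads of overlapping genes cannot be told apart. The authors deposited FPKM in 2 separately made tables, so fold changes were taken within a table. Depth is unknown, and relative depth was read from the steps of low values.

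Values were put on a log2 scale as log2(FPKM + 1) from the deposited FPKM, which understates changes of low genes. Genes averaging 1 FPKM or more were fitted with limma 3.58.1 in R 4.3.3 (intensity trend, two-sided) in each set, and in a joined fit with 1 fold change per set. Benjamini-Hochberg adjustment ran over all genes tested, with a threshold of 0.05. The fits were tested on simulated data with independent noise for each gene. The simulation held no pairs and none of the first-set depth and background differences, so it says nothing about their part in the calls.

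The members and the 19 gene lists were chosen with earlier results of these data known. Named genes were Chd8, the 10 members, every gene of the pathway lists past the threshold in any fit (a selection of those is printed), Orc1, Gmnn, Cdc45, Dbf4, Mcmbp and the 5 nearest profiles. Other names were chosen after their values were seen. Same-numbered libraries deviated together in the new set (r across genes 0.12, 0.24 and 0.19) and not in the first set (-0.0285). The numbers were therefore taken as pairs in the new set. With 2 libraries per group, first-set values for same and different numbers differ only in sign (-0.0285 and 0.0285). The check can thus not exclude pairs in the first set. The main fits and those leaving out a library held no block. Replicates are separate pools of embryos. Promoters came from RefSeq (GRCm38.p6) and not from the build of the tables. Alternatives were another pseudocount, other filters, rescaling, background subtraction, no trend, the block and leaving out each library.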

Additional observations from a re-analysis of the deposited data

Results flagged for a closer look

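Of the 10 licensing genes, Mcm4 had a fold change that differed between the sets by limma's test of the difference, 0.76 on the log2 scale (new set minus first set). The same test called 18 genes of the related lists that are named or counted in the text. The difference was positive, a smaller fall or a rise in the new set, for Ddb1 (1.60), Mcmbp (1.40), Cul4b (1.02), Skp2 (0.999), Wdhd1 (0.93), Orc3 (0.88), E2f6 (0.81), Orc5 (0.77), Rif1 (0.68) and Ccna2 (0.62). Among mitosis genes it was positive for Kif20a (1.69), Ccnb1 (1.40), Plk1 (1.10), Top2a (1.09), Bub1 (0.999), Aurka (0.87) and Tpx2 (0.68). It was negative for Mcm8 (-0.79). Median-of-ratios rescaling ended the calls of Mcm4, Skp2, Wdhd1, E2f6, Orc5, Rif1, Ccna2 and Tpx2, and the replicate block ended those of Mcm4, Skp2 and Wdhd1. That block covered both sets, although only new-set numbers were taken as pairs. Of all genes, 32.5% were called on this contrast, in which shRNA, batch and table change together.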

How the results depend on the processing

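The counts of licensing genes called by limma moved by more than 1.5 times with the processing in each set alone, and by less in the joined fit. In the new set 2 were called with no filter on low values (4 with it), 8 with the replicate block, and 0 to 4 when 1 library was left out. In the first set 0 were called with no filter (6 at an unadjusted p under 0.05), 1 with median-of-ratios rescaling, 2 with the replicate block and 0 to 1 when 1 library was left out, with a lone library then assumed to vary like the other group. Same-numbered libraries of the first set were not taken as pairs, although the check could not exclude pairs there. The joined fit called 8 to 9 genes under each other setting and 7 to 10 when 1 library was left out. For the difference between the sets the count was 1, against 2 with a mean of at least 5 FPKM, 2 with the olfactory receptor level subtracted, 0 with rescaling, 0 with the replicate block and 0 to 4 when 1 library was left out. In the joined fit and the difference the replicate block also covered the first set, whose numbers were not taken as pairs. The replicate block changed the joined call of Cdc6 and no other joined call. Over all genes, the new set had 1015 calls, 470 with no filter, 2452 with the block and 88 to 1883 with 1 library left out. The first set had 2971 calls, 1602 with a mean of at least 5 FPKM and 713 to 1247 with 1 library left out. The joined fit had 3238 calls and the difference 3520, against 5917 and 6345 with no filter. Rescaling moved the first-set calls to 663 lower of 2591, against 1332 lower of 2971. Signs turned for Cdt1 in the first set (-0.49 to 0.0943 with 1 library left out), for the Cdt1 difference (-0.57 to 0.0166) and for the Mcm6 difference (-0.0921 with rescaling, -0.13 to 0.31 with 1 library left out). The cause was not tested. Absolute depth is unknown, so no counting interval is given.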

Other observations

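In the first set the ratio of Cdt1 to Cdc6 FPKM was 0.816 ± 0.00253 in knockdown libraries and 0.523 ± 0.0819 in controls (SD, n = 2 each), without overlap. In the new set it was 2.29 ± 0.072 in knockdown libraries and 2.43 ± 0.47 in controls (SD, n = 3 each), with overlap. The ratio of Cdt1 to Gmnn, its inhibitor, overlapped between the groups in both sets, at 0.357 ± 0.108 in knockdown libraries and 0.321 ± 0.101 in controls of the new set. The microRNA genes Mir25, Mir93 and Mir106b lie within Mcm7 and were listed at 0 in all libraries, except Mir25 at 4921 FPKM in first-set control replicate 2.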
